A study of Mus musculus with 9 samples.

Results

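C1q-positive barcodes of mouse femur bone marrow are described here, a set chosen to hold macrophages of the marrow. They were selected on measured values. A droplet barcode was a member when it held at least 1000 unique molecular identifiers (UMIs, each a counted RNA molecule) from at least 500 genes, with at most 10% of them mitochondrial, at least 3 UMIs of *C1qa*, *C1qb* and *C1qc* together, and none of *Siglech* (a plasmacytoid dendritic cell gene) or *Cd79a* (a B-cell gene). In all, 556 of 39051 barcodes of this quality were members, and 68444 barcodes were listed before the quality limits.

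The marrow came from female mice of 3 strains, NZB and NZW (the New Zealand Black and the New Zealand White strain) and NZBWF1, the F1 hybrid of these parent strains, with 3 mice per strain. All were adults of 9 to 10 weeks, and the labels give no treatment and no engineered allele for any group. NZBWF1 is a model of systemic lupus erythematosus that carries 1 genome from each parent strain, so a locus that differs between the parents is present in both versions. Each mouse was a separate droplet library and is the replicate in every test below.

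Macrophages of the marrow clear dying cells and the nuclei that erythroblasts expel, break down haemoglobin, and return its iron to developing red cells through ferroportin, the product of *Slc40a1*. C1q, built from the chains of *C1qa*, *C1qb* and *C1qc*, tags debris and immune complexes for this clearance and starts the classical complement pathway. VCAM1, on the surface of these macrophages, holds erythroblasts and other marrow cells in place, and SPIC is the transcription factor of iron-recycling macrophages.

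The 3 genes of the selection rule lie side by side on the minus strand of chromosome 4 (GRCm38.p6, RefSeq): *C1qa* at chr4:136895916-136898844, *C1qc* at chr4:136889801-136892936 and *C1qb* at chr4:136880126-136886200. The 200 bases before the start of 2 of them are shown, since RefSeq's promoter table used here holds *C1qb* and *C1qc*, and *C1qa* was not searched. A search for AGGAAGT, the core recognised by PU.1 (the ETS factor of the myeloid lineage), found it there on the opposite strand. The match is in capitals, read 5′ to 3′ along the gene's strand.
C1qb, chr4:136886201-136886400: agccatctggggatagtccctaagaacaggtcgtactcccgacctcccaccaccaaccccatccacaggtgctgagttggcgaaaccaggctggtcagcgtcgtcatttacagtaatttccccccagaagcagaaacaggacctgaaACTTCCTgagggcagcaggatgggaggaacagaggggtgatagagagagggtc
C1qc, chr4:136892915-136893114: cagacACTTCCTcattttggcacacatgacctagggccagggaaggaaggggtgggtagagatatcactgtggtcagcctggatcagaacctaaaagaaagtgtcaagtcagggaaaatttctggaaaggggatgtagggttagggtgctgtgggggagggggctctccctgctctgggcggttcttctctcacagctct
The match began at position -53 for *C1qb* and at -195 for *C1qc*, counted from the start that RefSeq's promoter entry uses. For *C1qc* that start lies inside the gene's outer bounds, so the window overlaps them. On either strand these 7 letters stood in 2082 of 32851 RefSeq promoters (6.338%) and in 4 of the 22 macrophage identity genes with an entry. The letters are a description of these windows and say nothing of binding.

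The rule left members with few C1q molecules. Their median was 4 C1q UMIs and the highest was 98. Just inside the limit, 185 members had exactly 3 C1q UMIs and 97 had 4, and just outside it 411 barcodes had 2 and 1297 had 1. Of 624 barcodes with 3 or more, 57 were left out for *Cd79a* and 11 for *Siglech*. All 3 C1q genes were seen in 292 members. C1q made up 1287 to 4163 counts per 1000000 UMIs (CPM) of the members of a mouse, 14.0 to 31.9 CPM of all other barcodes and 70.9 to 231 CPM of free RNA, which was measured in droplets with under 100 UMIs. A droplet of free RNA held 0.000586 to 0.00191 C1q UMIs on average. No member sequence was a member in another library, and 4 were kept as barcodes there without being members.

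The label of macrophage held in part. Several macrophage markers were seen in many members. *Vcam1* had a UMI in 59.9% of members, *Slc40a1* in 54.1% and *Hmox1* (haem oxygenase, which opens the haem ring and frees its iron) in 65.3%. *Axl* (a receptor for dying cells) had one in 46.4%. *Apoe* had one in 46.4% of members with 3 to 9 C1q UMIs and in 87.6% of those with 10 or more. Others were seen in few members, with *Adgre1* in 22.3%, *Mertk* in 15.5%, *Timd4* in 12.9% and *Siglec1* in 8.99%. *Vcam1* and *Slc40a1* were both seen in 222 members and neither in 144. Yet 365 of 556 members (65.6%) drew at least 2% of their UMIs from 6 neutrophil granule genes (*S100a8*, *S100a9*, *Ltf*, *Lcn2*, *Ngp* and *Camp*), against 39.9% of the other barcodes. Across members the median of this share of UMIs was 27.9%. Members were also deeper, with median UMIs of 2581 to 4287 per mouse against 2168 to 2531 in the other barcodes. The highest doublet scores covered 1458 of the 39051 kept barcodes and 24 of the 556 members. Of these 24, 20 were among the 365 members with 2% or more of UMIs from the neutrophil genes. By C1q content they were 5.32% of members at 3 to 4 C1q UMIs and 5.88% at 5 to 9. At 10 to 19 and at 20 or more they were 0%. The source of the neutrophil RNA was not tested, and the set is called C1q-positive barcodes below.

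The members divided along C1q content. In the bin of 3 to 4 C1q UMIs (282 barcodes), 73.4% drew 2% or more of their UMIs from the neutrophil genes, and in the bin of 20 or more (65 barcodes) 30.8% did. The share with at least 2 UMIs of *Vcam1* and *Slc40a1* together went the other way, from 33.7% at 3 to 4 C1q UMIs through 60.1% at 5 to 9 to 96.4% at 10 to 19 and 92.3% at 20 or more. Barcodes outside the rule continued this order, with 20.7% at 2 C1q UMIs, 11.1% at 1 and 2.56% at 0. In these markers the lowest members stood near the barcodes just outside the rule. Depth did not follow this order, as the median was 3380 UMIs at 3 to 4 and 2359 at 20 or more.

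**Figure D1:**
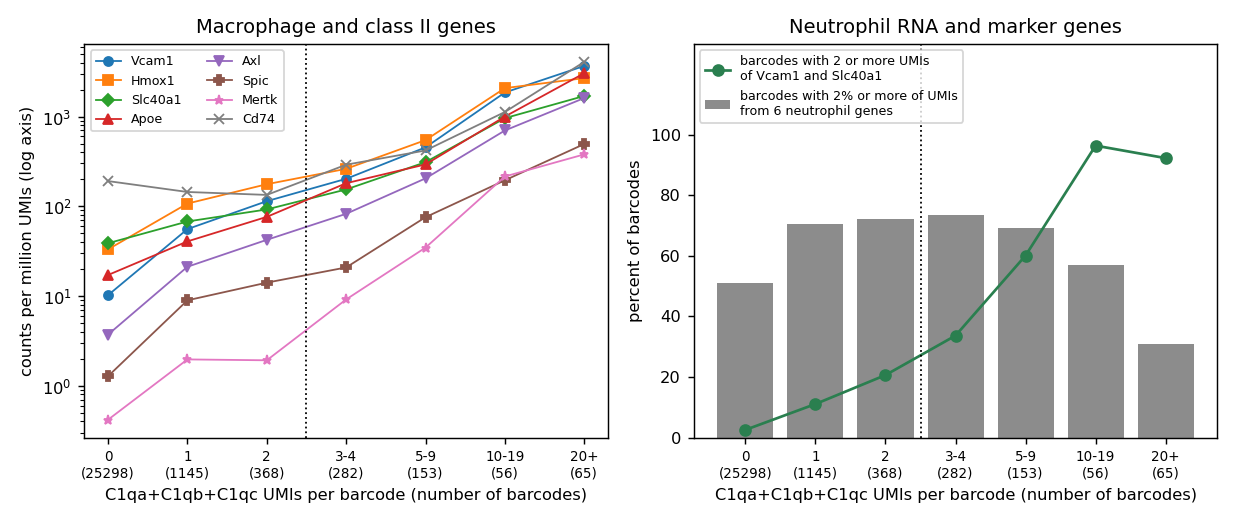
Barcodes binned by C1q UMIs (horizontal axis, number of barcodes in brackets, *Siglech* and *Cd79a* barcodes left out of every bin). Left, CPM of 8 genes over the pooled UMIs of a bin on a log axis. Right, bars give the percent of barcodes with 2% or more of UMIs from the neutrophil genes and points the percent with at least 2 *Vcam1* and *Slc40a1* UMIs. The dotted line is the rule's limit; *Vcam1* climbs from 202 CPM at 3 to 4 C1q UMIs to 3663 CPM at 20 or more.

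Levels of the macrophage genes followed C1q across the bins. *Vcam1* stood at 202, 453, 1853 and 3663 CPM in the bins 3 to 4, 5 to 9, 10 to 19 and 20 or more, and *Slc40a1* at 154, 310.0, 959 and 1695 CPM. For *Mertk*, which like *Axl* takes up dying cells, the values were 9.16, 34.6, 215 and 379 CPM, and for *Spic* 20.8, 75.5, 195 and 494 CPM. All of them were highest in the last bin. *Apoe*, a carrier of lipids, went from 181 to 3040 CPM between the first and last of these bins. *Cd74*, the invariant chain of MHC class II, went from 291 to 4065 CPM. Over the same bins the neutrophil gene *S100a8* went down from 62958 to 28201 CPM and *Mki67*, a gene of dividing cells, from 458 to 134 CPM. *Hbb-bs*, a globin of red cells, was highest at 10 to 19 with 9630 CPM.

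**Figure D2:**
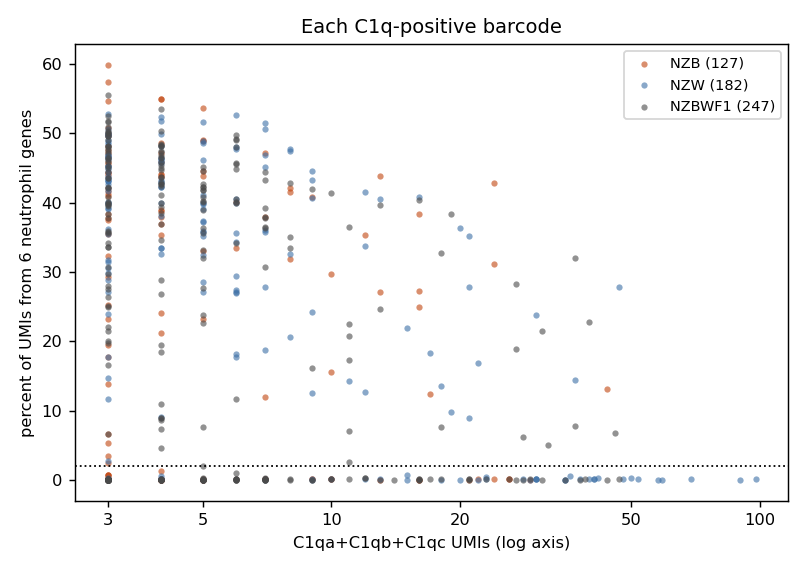
Each point is 1 of the 556 C1q-positive barcodes, coloured by strain, with its C1q UMIs on a log axis and the percent of its UMIs from 6 neutrophil genes. The dotted line is at 2%; the barcodes with the most C1q UMIs lie along the bottom and most of those with 3 or 4 lie far above the line.

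Members with little neutrophil RNA held more of every macrophage gene listed here. The 191 members under 2% had 1036 CPM of *Vcam1* over their pooled UMIs and the 365 others 573 CPM. *Hmox1* stood at 1067 and 526 CPM, *Axl* at 477 and 218 CPM, and *Fcna* (ficolin A, a pattern receptor of macrophages) at 358 and 155 CPM. The first group also held more red-cell RNA, with *Hbb-bs* at 6743 against 1187 CPM. Since C1q itself was higher there (*C1qa* 1352 against 804 CPM), these values describe the mixture and are no comparison of cell types.

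Most of the 121 members with at least 10 C1q UMIs held the leading macrophage genes, but not each of them. *Vcam1* had a UMI in 117 of them, *Axl* and *Apoe* in 106 each, *Slc40a1* in 102, *Hmox1* in 99, *Mrc1* (the mannose receptor) in 97 and *Fcna* in 92. Other receptors and regulators were seen in fewer, with *Spic* in 68, *Mertk* in 60, *Cd163* (the scavenger receptor for haemoglobin) in 59, *Timd4* (TIM-4, a receptor for phosphatidylserine on dying cells) in 39 and *Siglec1* (sialoadhesin) in 36. *S100a8* was present in 90 of the 121, and 52 drew 2% or more of their UMIs from the neutrophil genes. Chosen after its values were seen, *Cd74* had 10 or more UMIs in 27 of the 121. Of these 27, 21 had at least 2 UMIs of *Vcam1* and *Slc40a1* together, and the other 6 were among the 7 members with fewer.

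Taken over the 9 mice, several identity genes set the members apart in level, but the sum of their list did not set them apart from monocytes. *Vcam1* was 797 ± 187 CPM (SD, n = 9) in members, 12.2 CPM in all other barcodes and 2.1 CPM in 3024 C1q-negative monocytes. *Axl* was 332 ± 136, 4.76 and 14.3 CPM in the same order, and *Mertk* 73.6 ± 32, 0.503 and 1.52 CPM. The monocytes were chosen by *Csf1r*, *F13a1* and *Ly86* UMIs and little neutrophil RNA. They were taken as the most similar cells, but likeness was not measured. Their median share of UMIs from the 6 neutrophil genes was 0.086%, against 27.9% in members. The macrophage identity list summed to 10966 to 18526 CPM in members, 7244 to 10714 in other barcodes and 16010 to 21440 in monocytes. Members and monocytes overlapped in this sum. Of the 30 genes of the macrophage identity list, 23 were higher in members than in other barcodes in all 9 mice, and the list's median fold was 26.5. Of all 19529 genes with a UMI, C1q left out, 294 (1.51%) were higher in all 9 mice and the median fold was 0.744, and many of those genes had too few UMIs to be seen in every mouse. *Clec4f*, a Kupffer cell gene, had no UMI in any member. This contrast was used by the rule in that C1q chose the members, so it is given without a test.

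Averaged over all members, some genes often used for macrophages stood near or below monocytes. *Adgre1* (F4/80) was 89.0 ± 31.4 CPM in members and 76.0 CPM in monocytes, but it went from 29.1 and 44.1 CPM at 3 to 4 and 5 to 9 C1q UMIs to 159.8 and 411 CPM at 10 to 19 and 20 or more. It had a UMI in 12.2% of the members with 3 to 9 C1q UMIs and in 58.7% of those with 10 or more. In the same average *Cd68* was 128 ± 40.7 against 173 CPM. The receptor for the growth factor CSF1, *Csf1r*, was 99.3 ± 39.0 against 291 CPM, but it helped choose the monocytes. The monocyte genes *Ccr2* and *F13a1* stood at 152 and 119 CPM in members and 1693 and 1630 CPM in monocytes, which *F13a1* also helped choose. After each barcode was thinned to 1000 UMIs, *Vcam1* still had a UMI in 36.7% of members, against 0.961% of other barcodes, 0.165% of monocytes and 1.57% of barcodes rich in neutrophil RNA.

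Iron and haem genes of the members included haem uptake, haem breakdown and iron export. *Hmox1* was 708 ± 321 CPM (SD, n = 9) against 34.3 CPM in other barcodes, *Slc40a1* 409 ± 162 against 34.7, *Cd163* 93.3 ± 38.8 against 2.39 and *Trf* (transferrin, the iron carrier) 223 ± 69.4 against 24.5. Of the 34 genes of this list, 11 were higher in members in all 9 mice, with a median fold of 1.38, against 1.51% of all genes. Erythroid cells use many of the others. *Fth1*, the ferritin heavy chain, was 4710 ± 643 CPM in members, 2977 in other barcodes and 2462 in monocytes.

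Among the other groups, 11 of 35 genes of dead-cell uptake and 21 of 40 lysosome genes were higher in members than in other barcodes in all 9 mice, against 1.51% of all genes. In sum, the C1q-negative monocytes held as much or more of both lists. The member sums are averages over all members of a mouse, where the 6 neutrophil genes took 16% to 30.8% of UMIs. Lysosome genes summed to 5429 to 9203 CPM in members and 10647 to 13578 in monocytes, without overlap. Dead-cell uptake genes summed to 1476 to 2373 and 1912 to 2514 CPM. *Ctsd* (cathepsin D, a lysosomal protease) was 708 ± 150.2 CPM against 159 in other barcodes, and *Lgmn* (legumain) 154 ± 25.8 against 17.3. Between 3 to 4 and 20 or more C1q UMIs, *Ctsd* went from 305 to 2591 CPM and *Ctsb* (cathepsin B) from 283 to 2568 CPM. Their strain means in monocytes were 164 to 249 and 446 to 472 CPM. The list sums were not taken by C1q content. Growth factors included *Igf1* at 117 ± 37.4 against 2.33 CPM and *Kitl* (stem cell factor) at 21.3 ± 9.97 against 0.517. None of the 11 MHC class II genes and none of 62 measured interferon-stimulated genes were higher in all 9 mice. Only 1.51% of all genes were, so both counts are near that share. *Cd74* ranged from 274 to 1874 CPM between mice, a wide spread around 798 CPM.

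Signals of other cells moved between mice. The 10 B-cell and plasma cell genes summed to between 98.5 and 14616 CPM in members, a level that the rule helped set by leaving out barcodes with *Cd79a*. The upper end came from NZBWF1 replicate 2, where immunoglobulin genes made 1.45% of member UMIs. Only 1 of the 556 members drew 2% or more of its UMIs from these genes. The neutrophil list summed to between 162812 and 312003 CPM in members and between 123450 and 177348 in other barcodes. Megakaryocyte genes summed to 19 to 2069 CPM, and *Pf4* (a platelet chemokine) was 0, 12.4 and 308 CPM in the NZB mice, 19, 24.9 and 15 in NZW and 56.7, 1206 and 679 in NZBWF1. Stromal, endothelial and osteoclast genes stayed at 74.7 to 152 CPM.

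Whether the hybrid carries more of these cells than its parents was asked with the share of kept barcodes. Members were 1.75%, 0.803% and 1.31% in NZB, 1.30%, 1.26% and 1.23% in NZW and 1.44%, 1.62% and 2.11% in NZBWF1, from 37 to 120 members per mouse. NZB replicate 1 lay within the NZBWF1 range, and the other 5 parent mice lay below all NZBWF1 mice. The strain means were 1.29% ± 0.475, 1.27% ± 0.0337 and 1.72% ± 0.346 (SD, n = 3 each). NZBWF1 was 0.448 percentage points above the mean over the 6 parent mice (exact permutation test over 84 splits of the mice, two-sided, p = 0.0952), and over 5 such comparisons the adjusted p was 0.25. Any difference among strains gave an exact p = 0.304. With 3 mice against 3 the smallest possible p is 0.1, which NZBWF1 against NZW gave with 0.459 points. NZB and NZW differed by 0.0226 points (exact permutation p = 0.8).

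**Figure D3:**
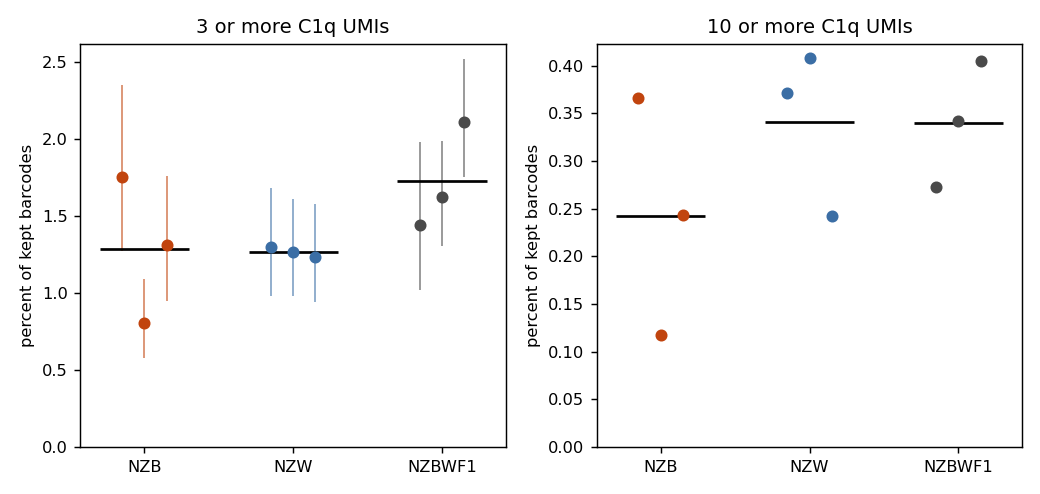
Percent of kept barcodes of each mouse (points) that were C1q-positive, left, with 95% exact binomial intervals that cover counting error only, and percent with at least 10 C1q UMIs, right, without intervals. Horizontal lines are strain means; left, 1.29%, 1.27% and 1.72% for NZB, NZW and NZBWF1, and right, 0.243%, 0.341% and 0.340%.

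The result for the share rested on which barcodes counted as members. With at least 10 C1q UMIs, the means were 0.243%, 0.341% and 0.340% in NZB, NZW and NZBWF1, so NZBWF1 stood above NZB but not above NZW. Its difference from the mean over the 6 parent mice was 0.0483 points (exact permutation p = 0.488). With the 301 members that had at least 2 UMIs of *Vcam1* and *Slc40a1*, the difference was 0.309 points (exact permutation p = 0.0238), but any difference among strains gave an exact p = 0.164. Without NZB replicate 1 it was 0.543 points (exact p = 0.0179, and 0.05 for any strain), and without NZBWF1 replicate 3 it was 0.255 points (exact p = 0.286). Shares of droplets are not numbers of cells in the marrow.

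Strain differences in gene levels were tested on the UMIs summed over the members of a mouse, 141171 to 553420 UMIs, with edgeR's quasi-likelihood test and Benjamini-Hochberg adjustment over 3003 genes. The 3 C1q genes were in the fit but are left out of all counts, since they chose the barcodes. Log2 differences are on the scale of edgeR's normalised counts, with their SE, and CPM are given as the spread over mice shows them. Of the 3000 other genes, 79 differed between NZB and NZW (2.63%), 25 higher in NZB (0.833%) and 54 lower (1.80%). NZBWF1 differed from NZB at 4 genes (0.133%), from NZW at 7 (0.233%) and from the mean of the parents at 2 (0.0667%). The median over all genes was 0.02 for NZB against NZW on the log2 scale. In summed UMIs, a lower level per macrophage and more RNA of other cells in the barcodes cannot be told apart.

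Those macrophage identity genes that differed between the parents were lower in NZB. *Apoe* was 263, 299 and 184 CPM in the NZB mice, 1168, 902 and 808 in NZW and 729.6, 496 and 437 in NZBWF1. All 3 NZB mice were below every other mouse, and the NZBWF1 mice lay between. NZB was lower by a log2 difference of -2.14 (SE 0.28, edgeR adjusted p = 9.42e-05). *Axl* was 235, 249 and 170.1 CPM in NZB, 394, 528 and 567 in NZW and 305, 287 and 255 in NZBWF1. The strains did not overlap, and NZB was lower than NZW by -1.36 (SE 0.24, edgeR adjusted p = 0.00188).

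Of the 30 macrophage identity genes, 21 were tested, and 9 were lower in NZB than in NZW while none was higher, against 1.80% lower of all genes. The list's median log2 difference was -1.05. The 9 were *Apoe*, *Axl*, *Fcna*, *Spic*, *Mrc1*, *Cd68*, *Timd4*, *Ms4a7* and *Aif1*. This count rested on single mice, since *Apoe* and *Axl* alone were called without NZB replicate 2, without NZB replicate 3 or without NZW replicate 1. It was 6 without NZB replicate 1, 5 without NZW replicate 2 and 7 without NZW replicate 3, and it rose to 11 with the replicate block or without NZBWF1 replicate 1. It also rested on the members used, as *Apoe* alone was called with at most 5% mitochondrial UMIs, where the list's median was -0.22, and with at least 10 C1q UMIs, where it was -0.99. With little RNA of other lineages 8 of 18 tested were lower, and the median was -1.88. *Spic* was 60.2, 43.6 and 64.4 CPM in NZB and 195, 135 and 100.3 in NZW (-1.52, SE 0.35, edgeR adjusted p = 0.0214). *Timd4* was 21.9, 31.1 and 23.0 CPM in NZB and 61.7, 125 and 60.2 in NZW (-1.86, SE 0.45, edgeR adjusted p = 0.0302). For both genes all NZB mice were below all NZW mice. The call of *Spic* was lost without any 1 of the NZB mice or without NZW replicate 1 (edgeR adjusted p = 0.0531 to 0.168), and that of *Timd4* without any 1 of the NZB mice or NZW replicate 1 or 2 (edgeR adjusted p = 0.0507 to 0.155). *Vcam1* was 700.2, 909 and 542 CPM in NZB and 1059, 997 and 933 in NZW, a difference of -0.65 (SE 0.24) that did not pass (edgeR adjusted p = 0.143), though it did in 3 of 18 alternatives (edgeR adjusted p = 0.0306 to 0.0475). Against the hybrid none of the 21 genes passed, but only 0.133% of all genes differed from NZB and 0.233% from NZW, so the count is near those shares. The medians were 0.28 against NZB and -0.72 against NZW on the log2 scale.

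Iron genes followed at export and transport. *Slc40a1*, at chr1:45908070-45926532, was 235, 305 and 161 CPM in NZB, 659.9, 608 and 391 in NZW and 446, 431 and 443 in NZBWF1. No NZB mouse reached an NZW or NZBWF1 mouse, and NZB was lower than NZW by -1.43 (SE 0.27, edgeR adjusted p = 0.00418). *Trf* was 126, 168 and 138 CPM in NZB and 342, 269 and 256 in NZW (-1.19, SE 0.24, edgeR adjusted p = 0.00823). *Slc48a1*, the transporter that moves haem out of the phagolysosome, was also lower (-1.23, SE 0.32, edgeR adjusted p = 0.0399). Without NZB replicate 3 the calls of *Slc40a1* (edgeR adjusted p = 0.0663), *Trf* (0.0808) and *Slc48a1* (0.185) were lost, and without NZW replicate 1 those of *Trf* (0.0698) and *Slc48a1* (0.282). *Slc48a1* was not called in 10 of 18 alternatives, with leaving out NZB replicate 1 or 2 or NZW replicate 3 among them. *Hmox1* did not pass: it was 591, 386 and 280.4 CPM in NZB, 1158, 907 and 376 in NZW and 1063, 689.7 and 916 in NZBWF1, with NZW replicate 3 inside the NZB range (-1.13, SE 0.39, edgeR adjusted p = 0.147). It was called lower in NZB in 4 of 18 alternatives, with DESeq2, without the filter on low counts, with the replicate block and without NZW replicate 3 (adjusted p = 0.00427 to 0.0454 by edgeR or DESeq2). Of 19 iron and haem genes tested, 5 were lower in NZB (1.80% of all genes) and 1 was higher (0.833% of all genes). The higher gene was *Ftl1*, and 1 of the 5 lower was its near-identical copy *Ftl1-ps1*. The others were *Slc40a1*, *Trf*, *Spic* and *Slc48a1*, and without NZB replicate 3 *Ftl1-ps1* was the only lower gene called.

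The lysosome and complement genes that passed were lower in NZB. Of 30 lysosome genes tested, 4 were lower in NZB and none higher, against 1.80% lower of all genes, with a median of -0.61. No lysosome gene was called without NZB replicate 3 or with at least 10 C1q UMIs, and 1 without NZB replicate 2 or NZW replicate 1. The count lower in NZB rose to 7 with little RNA of other lineages, 9 with the replicate block and 10 without NZBWF1 replicate 1. With at most 5% mitochondrial UMIs, 1 gene was lower and *Ctsc*, a protease of granules and lysosomes, was higher in NZB (1.48, edgeR adjusted p = 0.0127). *Acp5* (tartrate-resistant acid phosphatase) was 49.2, 49.8 and 50.6 CPM in NZB, 133, 115 and 120.4 in NZW and 77.9, 82.7 and 68.7 in NZBWF1, with no overlap (-1.47, SE 0.30, edgeR adjusted p = 0.00823). *Lipa*, the lysosomal acid lipase, was 82.1, 49.8 and 41.4 CPM in NZB and 142, 155 and 135 in NZW (-1.50, SE 0.31, edgeR adjusted p = 0.00888). For both genes the NZB mice lay below all others, and *Cd68* and *Grn* were the other 2 called. *Cfp* (properdin, which stabilises the alternative pathway's convertase) was the 1 called of 6 complement genes tested besides C1q (again beside 1.80% lower of all genes, as for the lists that follow), at 120.4, 156 and 142 CPM in NZB and 323, 309 and 261 in NZW (-1.27, SE 0.27, edgeR adjusted p = 0.0111). *Syk*, the kinase below activating Fc receptors, was the 1 called of 5 genes of the Fc receptor list (-1.47, SE 0.34, edgeR adjusted p = 0.0215). *Igf1* was the 1 called of 7 cytokines and growth factors (-1.11, SE 0.30, edgeR adjusted p = 0.0489). Without NZB replicate 3 none of *Acp5*, *Lipa*, *Cd68*, *Grn*, *Cfp*, *Syk* and *Igf1* was called (edgeR adjusted p = 0.0757, 0.112, 0.155, 0.271, 0.0808, 0.185 and 0.297). *Cd68* was lost in 8 and *Grn* in 10 of 18 alternatives. *Syk* was lost in 7 and *Igf1* in 11 of 18 alternatives, *Lipa* also without NZB replicate 2, and *Acp5* and *Cfp* also without NZW replicate 1. *Cfp* was lost in 5 of 18 alternatives, leaving out NZB replicate 1 among them (edgeR adjusted p = 0.0531). Of the Fc receptor list 3 genes, *Syk*, *Fcgr3* and *Fcer1g*, were called with the replicate block and without NZBWF1 replicate 1. In the same alternatives *Itgb2* was called beside *Cfp*, and the chemokine gene *Ccl6* beside *Igf1*. *Ccl4* was called as well without NZBWF1 replicate 1. *Ccl6* was called lower in NZB in 6 of 18 alternatives. None of 5 MHC class II genes passed, where 2.63% of all genes did, so the count is near that share. Their median was -1.36, and *Cd74* overlapped between all strains. *H2-Eb1*, a class II gene, was called lower in NZB in 1 of 18 alternatives (-2.34, DESeq2 adjusted p = 0.0263).

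The C1q genes themselves are given without a test, since they chose the barcodes. *C1qa* was 848, 697 and 607 CPM in NZB, 1515, 1949 and 1445 in NZW and 1055, 914 and 703 in NZBWF1, with NZW above all others. *C1qb* was 382 to 487, 858 to 1167 and 459 to 638 CPM in the same order. Members with 10 or more C1q UMIs were 14.6% to 20.9% of the members in NZB, 19.7% to 32.3% in NZW and 18.9% to 21.1% in NZBWF1. Thus the lower macrophage genes of NZB stood beside a lower C1q content per UMI. As a percent of C1q UMIs, *Axl* averaged 14.06% in NZB and 14.54% in NZW, *Slc40a1* 14.97% and 15.99%, and *Cd68* 5.43% and 4.75%. On this scale, given without a test, the mice of both strains overlapped for these genes and for *Acp5*, *Cfp*, *Syk* and *Igf1*. *Apoe* stayed lower in all NZB mice (means 15.97% and 28.17%), as did *Bst2*, *Treml4*, *Ly6c2*, *Itgb2l* and *Cd3d* among others. *Vcam1* was higher in all NZB mice (means 46.24% and 29.18%). So were other identity, lysosome and iron genes, among them *Cd81*, *Sirpa*, *Psap*, *Ctsb*, *Lamp1*, *Fth1* and *Ctsd* (means 37.22% and 24.31% for *Ctsd*). The direction between the parents thus depended on the scale. Median UMIs per member were 3517 to 4287 in NZB, 2581 to 3269 in NZW and 2974 to 3265 in NZBWF1 (any strain, exact permutation p = 0.0143, adjusted over 5 p = 0.0714). The neutrophil genes took 16.8% to 21.9% of member UMIs in NZB, 21.4% to 30.8% in NZW and 16% to 26.3% in NZBWF1 (any strain, exact permutation p = 0.168). The part of these measures in the strain differences was not tested.

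**Figure D4:**
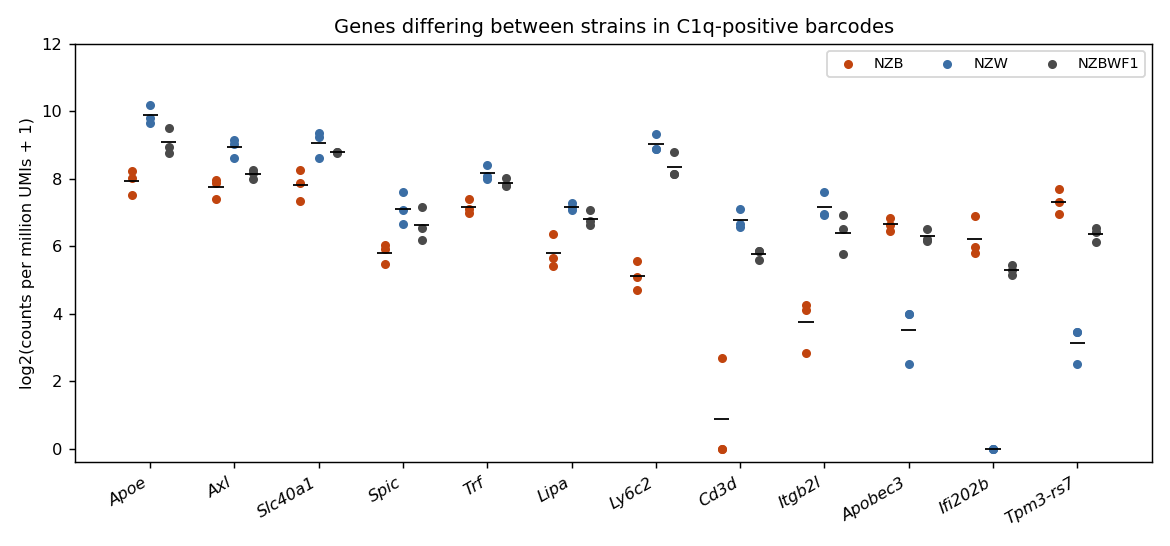
Level of 12 genes in the C1q-positive barcodes of each mouse (points, 3 per strain), as log2(CPM + 1), with lines at strain means. NZB lies below NZW for *Apoe* to *Itgb2l* and above it for *Apobec3*, *Ifi202b* and *Tpm3-rs7*, with NZBWF1 mostly between.

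Interferon-stimulated genes did not share a direction. Of 22 tested, 2 were higher and 3 lower in NZB than in NZW, against 0.833% higher and 1.80% lower of all genes, with a median of -0.17. The count lower in NZB rose to 7 without NZBWF1 replicate 1 and to 6 without NZBWF1 replicate 3, with 2 higher in both. With little RNA of other lineages 2 were lower and none higher. With at most 5% mitochondrial UMIs 1 was higher and none lower. *Ifi202b* (chr1:173962569-173982844), an interferon-induced gene of the Ifi200 cluster, was 54.7, 62.2 and 119.5 CPM in NZB, 0 in all 3 NZW mice and 42.5, 38.7 and 34.3 in NZBWF1. It had 46 UMIs in NZB, 40 in NZBWF1 and none in 610573 UMIs of NZW, so NZB was at least 16.7-fold and NZBWF1 at least 7.53-fold higher, taking 3 UMIs over the NZW mice as the floor. The edgeR adjusted p was 0.000692 for NZB and 0.0350 for NZBWF1, and the last was lost without NZB replicate 3, NZW replicate 1 or NZW replicate 3 (edgeR adjusted p = 0.0824 to 0.0881). *Apobec3*, a restriction factor for retroviruses, was 98.5, 87.1 and 115 CPM in NZB, 4.75, 15 and 15 in NZW and 70.8, 90.4 and 74.1 in NZBWF1. Here NZW stood alone, with NZB higher by 2.91 (SE 0.43, edgeR adjusted p = 0.000353) and NZBWF1 by 2.59 (edgeR adjusted p = 0.00387). The call for NZBWF1 was lost with *Vcam1* and *Slc40a1* marked members (edgeR adjusted p = 0.157) and at 5% mitochondrial UMIs (edgeR adjusted p = 0.0985). The lower genes were *Bst2* (tetherin, which holds budding virus), *Ifitm2* and *Rsad2* (viperin, an antiviral enzyme). *Bst2* was 21.9, 49.8 and 27.6 CPM in NZB and 99.7, 139.6 and 105 in NZW (-1.99, SE 0.35, edgeR adjusted p = 0.00222). *Bst2* was the only lower gene called without NZB replicate 3, where *Ifitm2* and *Rsad2* had edgeR adjusted p = 0.155 and 0.229. Each of these was lost in 6 alternatives, with leaving out NZW replicate 1 or 3 among them.

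Genes usually assigned to other cells also differed. *Ly6c2*, a surface antigen of monocytes and neutrophil precursors, was 32.8, 24.9 and 46.0 CPM in NZB, 641, 469 and 477 in NZW and 446, 282 and 282 in NZBWF1. All NZB mice were low, and NZB was below NZW by -4.07 (SE 0.33, edgeR adjusted p = 4.39e-08) and NZBWF1 above NZB by 3.22 (edgeR adjusted p = 5.53e-06). Neither call was kept among members with little RNA of other lineages, where NZBWF1 exceeded NZB by 2.39 (edgeR adjusted p = 0.998). *Itgb2l*, an integrin gene, was 6.22 to 18.4 CPM in NZB and 120.4 to 195 in NZW (-3.51, SE 0.47, edgeR adjusted p = 9.42e-05). *Cd3d*, a chain of the T-cell receptor complex, had 1 UMI in NZB, 68 in NZW and 56 in NZBWF1. NZBWF1 exceeded NZB there by 4.54 (edgeR adjusted p = 0.00374, and 0.0977 without NZB replicate 3). *Treml4*, a receptor for dead cells found on some monocytes and macrophages, was 12.4 to 21.9 CPM in NZB and 71.2 to 94.7 in NZW (-2.37, SE 0.41, edgeR adjusted p = 0.00188). None of the 10 neutrophil genes passed between NZB and NZW, where 2.63% of all genes did, so the count is near that share. Their median was -0.68. Of the 10 dividing-cell genes, *Pcna* was called higher in NZB, beside 0.833% of all genes, and that call was lost in 4 of 13 alternatives, without NZB replicate 1 or 2 or NZW replicate 1 or 3 (edgeR adjusted p = 0.0685 to 0.175).

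*Tpm3-rs7*, named as a sequence related to the tropomyosin gene *Tpm3*, was 159, 124 and 207 CPM in NZB, 4.75, 9.97 and 10.0 in NZW and 92.1, 69.7 and 84.9 in NZBWF1 (NZB against NZW 4.08, SE 0.43, edgeR adjusted p = 3.79e-06). *Tpm3* itself ran opposite, with 159, 106 and 170.1 CPM in NZB and 233, 329 and 326 in NZW. The sequences of these 2 genes were not compared here, and whether reads of one were assigned to the other was not tested.

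Both genes that set NZBWF1 apart from the mean of its parents were ferritin light chain loci. *Ftl1* (chr7:45457944-45459886) is the ferritin light chain gene, and *Ftl1-ps1* (chr13:74406397-74407325) is a processed copy annotated as a pseudogene. *Ftl1* was 5312, 4438 and 3898 CPM in NZB, 199, 229 and 135 in NZW and 3173, 2715 and 3307 in NZBWF1. *Ftl1-ps1* ran the other way, with 32.8, 37.3 and 23.0 CPM in NZB, 7288, 6037 and 4811 in NZW and 2359, 2325 and 3059 in NZBWF1. For both loci the hybrid lay between the parents in every mouse. On the log2 scale it exceeded the mean of the parents' log values by 1.66 (SE 0.18) for *Ftl1* and 2.50 (SE 0.21) for *Ftl1-ps1* (edgeR adjusted p = 1.49e-05 and 2.07e-07). That mean lies low wherever 1 parent is near 0, so the contrast is no sign of a level outside the parents.

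The coding sequences of the 2 loci were compared because their reads are hard to tell apart. In GENCODE vM21 (GRCm38) they are 552 bases each with the stop, 99.638% identical, and differ at 2 positions. Both positions fall in the last 90 bases, which are shown with the differing positions in capitals.
Ftl1, chr7:45458107-45458196, minus strand: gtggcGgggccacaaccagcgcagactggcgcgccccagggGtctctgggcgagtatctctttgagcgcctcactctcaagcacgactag
Ftl1-ps1, chr13:74407066-74407155, plus strand: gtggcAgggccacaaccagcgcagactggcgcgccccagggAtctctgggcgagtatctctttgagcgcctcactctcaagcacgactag
In the first 150 bases after the stop 1 position differed.

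Summed over the 2 loci the strains overlapped. The sums were 5345, 4475 and 3921 CPM in NZB, 7487, 6266 and 4946 in NZW and 5532, 5040 and 6366 in NZBWF1, with means of 4580 ± 718, 6233 ± 1271 and 5646 ± 670.3 CPM (SD, n = 3 each). NZBWF1 stood 1066 CPM above NZB (exact permutation p = 0.2) and 587 CPM below NZW (exact permutation p = 0.7), and NZB 1653 CPM below NZW (exact permutation p = 0.2, where 0.1 is the smallest possible). Against the mean over the 6 parent mice the difference was 239 CPM (exact permutation p = 0.786). The share of *Ftl1* in the sum was 99.2% to 99.4% in NZB, 2.66% to 3.66% in NZW and 51.9% to 57.4% in NZBWF1. In the C1q-negative monocytes of the same mice it was 99.5% to 99.7%, 2.99% to 3.95% and 51.7% to 56.3%. The division between the loci was therefore alike in both kinds of barcode, and it followed strain. The sum was not alike. In monocytes it was 5089 to 6870 CPM in NZB, 3910 to 4377 in NZW and 4732 to 5506 in NZBWF1. There NZB lay above NZW without overlap, opposite to the order of the means in members, and this was not tested.

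**Figure D5:**
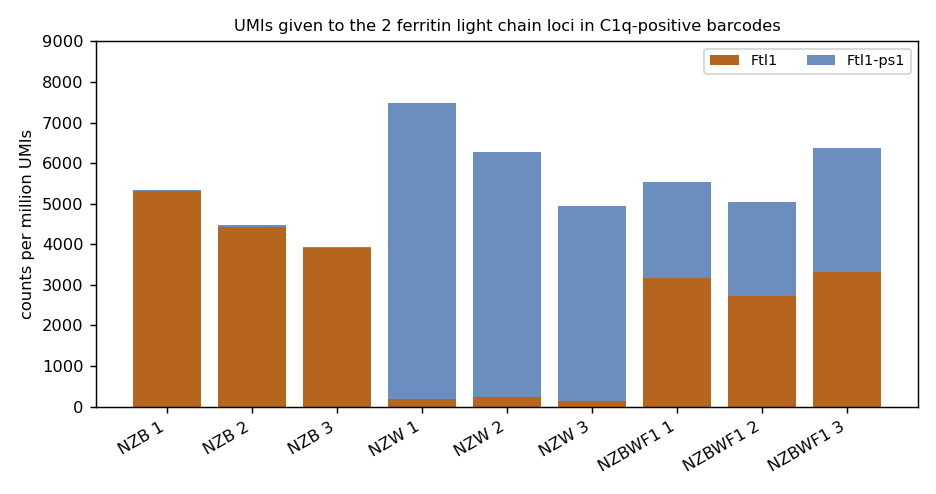
CPM given to *Ftl1* and *Ftl1-ps1*, stacked, in the C1q-positive barcodes of each mouse. NZB bars are nearly all *Ftl1*, NZW bars nearly all *Ftl1-ps1*, NZBWF1 bars hold both, and the total heights run from 3921 to 7487 CPM with overlap between strains.

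Besides *Ftl1-ps1*, 2 genes were lower in NZBWF1 than in NZW. *Fcnb* (ficolin B, a lectin of neutrophil precursors and monocytes) was 184, 129 and 97.6 CPM in NZBWF1 and 328, 309 and 376 in NZW (-1.54, edgeR adjusted p = 0.0113), and *Pla2g15*, a lysosomal phospholipase, was 42.5, 33.6 and 28.9 against 76.0, 129.6 and 85.3 CPM (-1.70, edgeR adjusted p = 0.0304). The NZBWF1 mice were below all NZW mice for both. *Pla2g15* was not called in 7 of 15 alternatives, among them without any 1 of the NZW mice or NZBWF1 replicate 2 or 3 (edgeR adjusted p = 0.0593 to 0.308), and *Fcnb* was lost without NZW replicate 3 or NZBWF1 replicate 3 (edgeR adjusted p = 0.0866 and 0.156).

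Whether strain differences were particular to these barcodes was tested against the C1q-negative monocytes of the same mice. Of 6814 genes besides C1q, 38 had strain differences that differed between the cell sets (0.558%, edgeR with the mouse as block), 10 of them in the role lists and 2, *Lcn2* and *Mmp8*, in the neutrophil list. That list holds 10 genes, so 2 is no full count of neutrophil genes among the 38. *Trem3* and *Chil1*, in no list, had the smallest p (edgeR adjusted p = 1.1e-08 and 1.17e-07). Their members overlapped between strains, while NZB and NZW monocytes averaged 109 and 19.2 CPM for *Trem3* and 260 and 36.9 CPM for *Chil1*. *Cfp* was 120.4 to 156 CPM in NZB and 261 to 323 in NZW members, but averaged 164 and 107 CPM in NZB and NZW monocytes, the opposite order (edgeR adjusted p = 0.00199). *Cd68* averaged 187 and 141 CPM in those monocytes, again opposite to members (edgeR adjusted p = 0.0134). For *Acp5*, members differed by strain as above and monocytes averaged 30.5 and 18.9 CPM (edgeR adjusted p = 0.0313). For *Apoe* and *Slc40a1* this difference did not pass, with edgeR adjusted p = 0.938 and 0.885, though both are near absent or low in monocytes. The monocytes were chosen with little neutrophil RNA and the members were not, and the part of that choice in these 38 genes was not tested. The number of genes ran from 4 without NZB replicate 3 to 137 without NZBWF1 replicate 1.

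These lists and calls depended on single mice and on the members used. Without NZB replicate 3, 21 genes differed between NZB and NZW, without NZW replicate 1, 31, without NZB replicate 2, 38, without NZW replicate 3, 46, and without NZBWF1 replicate 1, 206. For NZBWF1 against NZW the count went to 60 without NZBWF1 replicate 1. Of the 47 calls of genes followed, 14 passed in every alternative that gave a value. *Apoe* passed in every one of the 18 alternatives run, including members with little RNA of other lineages (-3.10, edgeR adjusted p = 0.00198). *Axl* did not pass with at most 5% mitochondrial UMIs (-0.76, edgeR adjusted p = 0.125), and *Slc40a1* (-1.99, edgeR adjusted p = 0.0547) and *Ly6c2* (-2.73, edgeR adjusted p = 0.0699) did not among members with little RNA of other lineages.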

How the data were processed

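Femur marrow cells of 9 mice were profiled on a droplet platform that counts transcript 3′ ends. The authors deposited UMI counts per gene and barcode for the 9 libraries together (Cell Ranger 3.1.0 and bcl2fastq 2.20 in the submitters' processing notes, mm10 per the labels), as a matrix of called cells and one of all droplets. Those counts are not normalised, and 0 columns lacked a mouse. Each barcode was given to its mouse by its number and the order of libraries in the deposited aggregation list.

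Members were found by the rule given above. The members and all gene lists were chosen with earlier results of these data known. No doublets were removed beyond the rule: Scrublet in scanpy 1.11.5 marked 36 of 39051 barcodes by its automatic threshold, too few to be used, so leaving out the highest scores was an alternative. UMIs were summed over the members of each mouse and tested with edgeR 4.0.16 in R 4.3.3 (TMM, filterByExpr, quasi-likelihood with robust dispersion, all strains in 1 fit, Benjamini-Hochberg threshold 0.05). The SE is the log2 difference divided by the square root of F. CPM are counts per 1000000 UMIs of the sum, without TMM. Shares were tested by exact permutation of mice, two-sided (scipy 1.17.1). Kept UMIs per mouse were 8106539 to 18663189. Intervals and floors of 3 UMIs cover counting error only.

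Genes named were the 3 C1q genes, *Vcam1* and *Slc40a1*, of each role list up to 6 genes of highest CPM in members, of each contrast up to 12 called list genes and the 10 called genes of smallest p, and 2 genes of each other-cell list. Called list genes past these limits (*Spic*, *Timd4*, *Trf*, *Slc48a1*, *Grn*, *Rsad2* and others) and *Tpm3*, *Clec4f*, *Kitl* and others given only as levels were named after their values were seen. So were *Trem3* and *Chil1*. Counts of called genes leave out the 3 C1q genes. Alternatives were stricter or cleaner members, subtraction of free RNA, DESeq2 1.42.0, a replicate block, no filter on low counts, and each mouse left out in turn. Simulated counts of 3003 genes were tested only as NZBWF1 against its parents' mean. Out of 100 genes given a 2-fold difference, the test found 70. Out of 100 given a 4-fold difference, it found 90. Beyond these, 7 genes passed. NZB against NZW was not simulated, so the rates do not apply to that comparison. They were not split by gene level, so they cannot tell how often genes with few UMIs are missed. Promoters came from RefSeq (GRCm38.p6) and coding sequences from GENCODE vM21.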

Additional observations from a re-analysis of the deposited data

Results flagged for a closer look

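A test of the difference itself, in which strain effects of the C1q-positive barcodes were set against those of C1q-negative monocytes of the same mice, called 38 of 6814 genes besides C1q (0.558%, edgeR adjusted p over 6817 genes). The 15 of them given here were named largely because this comparison called them, so their number is no result. Macrophage and lysosome genes among them were *Cd68* (adjusted p = 0.0134), *Ctsd* (0.00622), *Acp5* (0.0313), *Man2b1*, a lysosomal mannosidase (0.0296), and *Pla2g15* (0.0296). *Ctsd* was 414 to 749 CPM in NZB and 757 to 942 in NZW members, and averaged 249 and 164 CPM in NZB and NZW monocytes. *Man2b1* was 124 to 169.6 and 184 to 285 CPM in NZB and NZW members and 268 and 222 CPM in monocytes.

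The edgeR test also gave *Fth1* (adjusted p = 0.0314), with 3011 CPM in NZB and 1953 in NZW monocytes against 4294 to 4730 and 3933 to 5683 CPM in members. For receptors and complement it gave *Cfp* (0.00199), *C5ar1*, the C5a receptor (0.0484), *Fcgr1*, the high-affinity IgG receptor (0.0359), and the integrin gene *Itgb5* (0.0171). *Fcgr1* was 6.22 to 55.2 CPM in NZB and 33.2 to 89.7 in NZW members and averaged 92.2 and 38.9 CPM in monocytes. *Adpgk*, an ADP-dependent glucokinase, was also called (0.0183).

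Genes of other cells were *Fcnb* (edgeR adjusted p = 0.000142), *Cd3d* (0.00199), *Lcn2* (0.00455) and *Mmp8* (0.0306). *Lcn2* averaged 232 CPM in NZB, 32.6 in NZW and 35.9 in NZBWF1 monocytes, whereas members held 8564 to 10055, 6102 to 12259 and 5603 to 9648 CPM, which overlap. Neutrophil RNA differs between the 2 sets by the way the monocytes were chosen, and its part was not tested.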

How the results depend on the processing

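The share of members in NZBWF1 stayed above the mean over the parent mice in every alternative, though not above NZW with at least 10 C1q UMIs, and passed 0.05 by exact permutation or edgeR in 4 besides leaving out NZB replicate 1: members with *Vcam1* and *Slc40a1* UMIs (0.309 points), at most 5% mitochondrial UMIs (0.656), barcodes thinned to 1000 UMIs with the C1q limit lowered to 1 UMI (0.859) and edgeR on numbers of members (log2 ratio 0.56, p = 0.0475). As a test of any strain difference these 4 gave p = 0.164, 0.0964 and 0.0821 by exact permutation and 0.119 by edgeR. Leaving out 1 mouse gave 0.255 to 0.590 points.

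Counts of genes are given in the order NZBWF1 against NZB, against NZW, and NZB against NZW (4, 7 and 79 as reported). They were 2, 3 and 30 with *Vcam1* and *Slc40a1* marked members, 1, 4 and 42 with little RNA of other lineages, 15, 3 and 52 at 5% mitochondrial UMIs, 4, 10 and 93 without the highest doublet scores, 2, 1 and 4 with at least 10 C1q UMIs, 2, 7 and 52 with DESeq2, and 23, 48 and 158 without the filter on low counts. Against the mean of the parents (2 as reported) there were 7 at 5% mitochondrial UMIs and 34 without the filter. The comparison with monocytes (38) gave 31, 76, 23, 73, 13 and 107 genes for marked members, little other RNA, 5% mitochondrial, doublet scores, 10 C1q UMIs and no filter. Subtraction of free RNA left 79 genes for NZB against NZW. Against monocytes it gave 52 genes, with free RNA subtracted from the members only. The cause of these changes was not tested. Leaving out 1 mouse gave 2 to 8, 4 to 60 and 21 to 206 genes, 2 to 3 against the mean of the parents and 4 to 137 against monocytes.

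The labels do not say that a replicate number marks a shared litter, batch or day. Deviations from strain means over 1366 genes correlated between -0.115 and 0.432 in the 9 pairs of mice of equal number (6 over 0.1) and between -0.471 and 0.256 in the 18 pairs of unequal number (5 over 0.1). The best match of a mouse in another strain had its own number in 13 of 18 cases, a hint from the data, not the design, but not every pair was over 0.1. With the replicate block, 4 genes differed from the mean of the parents, and 7, 20 and 183 in the other comparisons. Of 47 gene calls followed, 14 passed in every alternative that gave a value, and 0 of 779 values reversed. Calls lost in at least 7 alternatives were *Igf1* (11), *Grn* and *Slc48a1* (10 each), *Aif1* (9), *Cd68*, *Mrc1* and *Ms4a7* (8 each) and *Spic*, *Syk* and *Pla2g15* (7 each). With at least 10 C1q UMIs and 10 members per mouse, the comparison could not be fitted, as NZB mice had 6 to 9. The block and DESeq2 were not run against monocytes, where the mouse is already a block. Low depth limits genes near 5 CPM in the parent strains, where that is about 3 UMIs per strain. NZBWF1 had more member UMIs, 1081712 against 561014 in NZB and 610573 in NZW.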

Other observations

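A few genes of the C1q-positive barcodes stood outside the groups above. *Adpgk*, an ADP-dependent glucokinase, was 110.3 to 159 CPM in NZB, 349 to 479.5 in NZW and 214 to 283 in NZBWF1 members, with no overlap, and 18.5 to 19.5 CPM on average in monocytes of the 3 strains. *Fcgr3*, an activating IgG receptor, was 142 to 169.6 CPM in NZB, 234 to 241 in NZW and 137 to 156 in NZBWF1, and NZB against NZW did not pass (edgeR adjusted p = 0.0673), though it did with the replicate block and without NZBWF1 replicate 1 (edgeR adjusted p = 0.0332 and 0.0283).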
